A study of Mus musculus with 6 samples.

Results

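The genes described here are 10 members of the integrated stress response: the transcription factor genes Atf4, Atf3, Atf5 and Ddit3, and the effector genes Trib3, Chac1, Sesn2, Ddit4, Ppp1r15a and Asns. They were picked by symbol for their place in that pathway, by a rule that uses no measured value but written with earlier results of these data known, out of 17951 genes listed in at least 1 library. All 10 were found in all 6 libraries. The RNA came from macrophages differentiated in culture from bone marrow (BMDMs). The marrow donors were wild-type C57BL/6 mice, 8 weeks old, and the cells grew for 4 to 6 days in medium with L929 conditioned medium. In the Pam3CSK4 group, 3 libraries represent a 6 h stimulation with Pam3CSK4, a synthetic lipopeptide and agonist of Toll-like receptor 2. In the Pam3CSK4 plus DA group, the other 3 libraries represent cells that received dopamine (DA), a neurotransmitter, for 2 h before stimulation. The treatment protocol names Pam3CSK4 for this group as well, whereas the source labels of its libraries read Pam3CSK5, Pam3CSK6 and Pam3CSK7; the protocol was followed. Both groups were stimulated; libraries without Pam3CSK4 were not analysed here, and every difference given is between stimulated cells with and without DA.

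In the integrated stress response, kinases that sense amino acid shortage, endoplasmic reticulum (ER) stress, heme shortage or double-stranded RNA phosphorylate the translation initiation factor eIF2. General protein synthesis then falls, while translation of the Atf4 messenger rises through short upstream reading frames. ATF4 activates genes of amino acid supply and of stress adaptation together with C/EBP proteins, and its target CHOP, the product of Ddit3, adds genes linked to cell death. A phosphatase recruited by the product of Ppp1r15a reverses eIF2 phosphorylation. Messenger levels, the only measurement here, report neither eIF2 phosphorylation nor the amount of ATF4 protein.

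Of the 10 genes, 9 were higher with DA and 1, Ppp1r15a, was lower. Calls rest on the quasi-likelihood test of edgeR over 12390 genes, with p-values adjusted by Benjamini-Hochberg and a threshold of 0.05. Trib3 rose 6.68-fold, Chac1 3.92-fold, Atf5 3-fold, Ddit3 2.71-fold, Asns 2.54-fold and Sesn2 2.15-fold, so 6 of the 10 rose at least 2-fold. Atf4 itself rose 1.83-fold, Ddit4 1.69-fold and Atf3 1.52-fold. Calls were frequent in this comparison: 64.4% of tested genes changed, 32.6% upward and 31.8% downward, while 7.34% rose and 7.48% fell at least 2-fold. Over all genes 4043 were higher and 3938 lower; upper-quartile factors gave 5055 and 3138, with the overall median log2 fold change at 0.135 in place of 0.02. The 10 genes had a median log2 fold change of 1.22, against 0.02 over all tested genes. For all 10 the ranges of the groups were apart, as they were for 68.7% of tested genes.

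**Figure D1:**
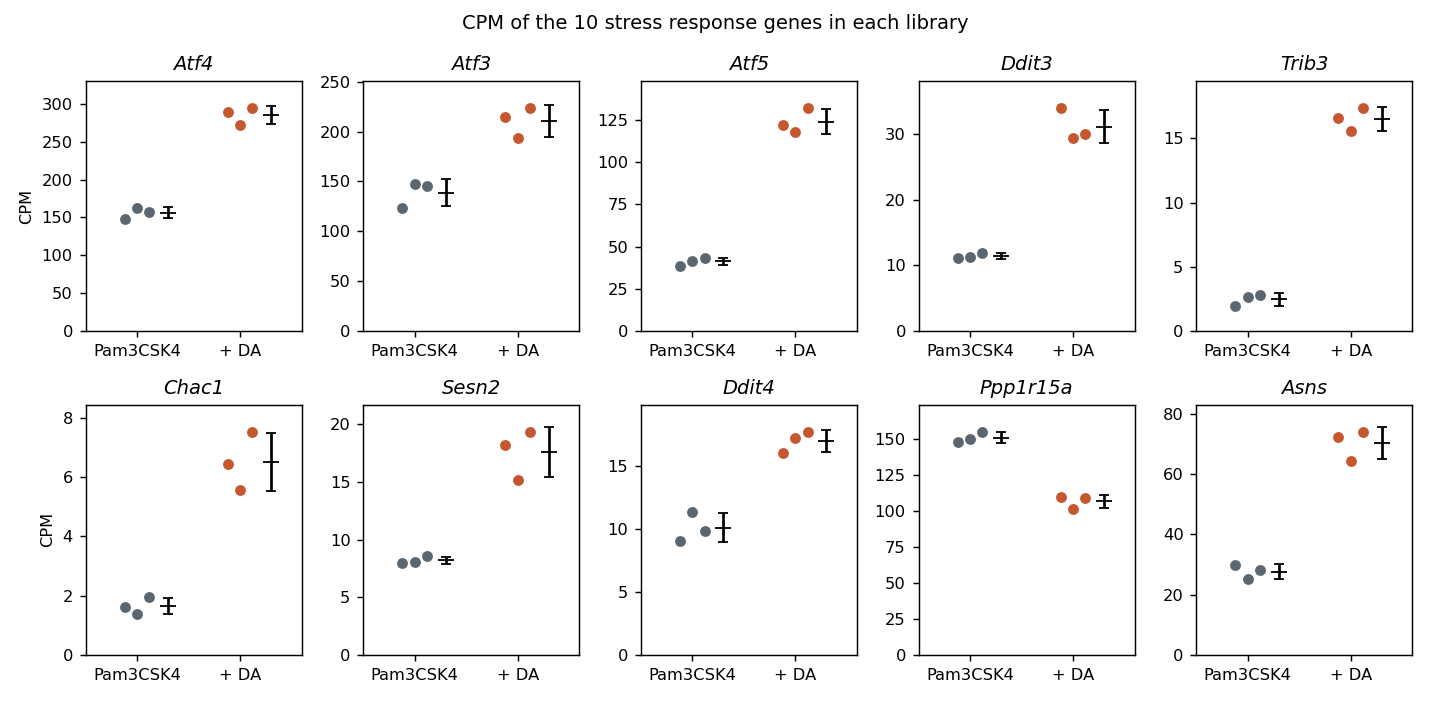
CPM (counts per 1000000 counts, with TMM scaling; y axis, from 0) of each gene in the 3 Pam3CSK4 libraries (grey) and the 3 Pam3CSK4 plus DA libraries (orange), with the mean and SD as a black bar beside them. The groups are apart in every panel, with DA above in 9 genes and below in Ppp1r15a.

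The libraries held between 21337932 and 21518425 expected counts, and the 50 most abundant genes took 22.1% to 24.8% of them. All 9 macrophage markers were listed, with a summed FPKM (the deposited level per transcript length and library size) of 20723 to 21104 with Pam3CSK4 and 16592 to 17553 with DA. Of 8 neutrophil markers, 1 was higher, 2 were lower, 4 were not called and 1 was not tested, and their summed FPKM was 368 to 471 with Pam3CSK4 and 1411 to 1455 with DA. S100a8 made up 1129 to 1190 FPKM of the latter, and Ly6g was at or under 0.52 FPKM in every library. Stromal markers summed to 158 to 165 FPKM with Pam3CSK4 and 149 to 160 with DA, 3 of 6 lower and none higher. Markers of lymphocytes (B, T and NK), of dendritic, mast, erythroid and endothelial cells, list by list, summed to at most 2.52 FPKM in any library. The part of these markers in the results below was not tested, and in bulk samples fewer cells of a type and less RNA per cell cannot be told apart. Whether replicates are separate mice or cultures is not in the labels, so the p-values reflect only how these 6 libraries vary, which may be technical.

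ATF4 binds with a C/EBP protein to the C/EBP-ATF response element, and 4 of the 10 genes hold a match to it near their start. RefSeq promoter windows on GRCm38.p6, from 250 bases before to 50 bases after each start, were found for all 10, with 2 windows for Atf5. The letters TGATGNAA, searched on both strands, matched in Asns, Chac1, Atf3 and Trib3. They occur in 3.97% of all 32851 windows and in 4.51% of 27025 genes with a window. The sites follow with 6 flanking bases on each side, in the orientation of the motif and with the match in capitals, to show how they differ in their variable base and flanks.
Asns: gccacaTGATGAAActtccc
Chac1: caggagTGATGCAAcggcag
Atf3: acttggTGATGCAAgtgcga
Trib3: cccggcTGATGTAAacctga
Atf3 and Chac1 share the same 8 bases, and Asns and Trib3 each differ from them in the variable base. Counted from the first transcribed base, the match lies at -23 to -16 in Asns, on the strand of the gene. On the opposite strand it lies at -193 to -186 in Chac1, at -110 to -103 in Atf3 and at 15 to 22, inside the transcript, in Trib3. Atf4, Atf5, Ddit3, Sesn2, Ddit4 and Ppp1r15a have no match in these windows, which says only that these letters are not there. Of 32 further ATF4 or CHOP target genes with a window, 9 hold a match.

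In the windows searched, Ppp1r15a, the gene that fell, alone among the 10 holds the full cAMP response element TGACGTCA. These letters occur in 1.79% of all windows and in 2.03% of genes with a window, and a part of the site in the fall was not tested. The 250 bases before the start are shown for the 3 genes whose C/EBP-ATF match lies upstream and for Ppp1r15a. Each runs 5′ to 3′ on the strand of the gene, with the match in capitals, and in Chac1 and Atf3 the capitals show the motif's reverse complement.
Asns, minus strand, chr6:7693210-7693459: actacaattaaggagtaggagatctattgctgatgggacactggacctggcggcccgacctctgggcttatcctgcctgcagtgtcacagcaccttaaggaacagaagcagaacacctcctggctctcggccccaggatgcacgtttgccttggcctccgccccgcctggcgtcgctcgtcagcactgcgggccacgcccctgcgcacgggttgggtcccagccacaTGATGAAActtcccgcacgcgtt
Chac1, plus strand, chr2:119350992-119351241: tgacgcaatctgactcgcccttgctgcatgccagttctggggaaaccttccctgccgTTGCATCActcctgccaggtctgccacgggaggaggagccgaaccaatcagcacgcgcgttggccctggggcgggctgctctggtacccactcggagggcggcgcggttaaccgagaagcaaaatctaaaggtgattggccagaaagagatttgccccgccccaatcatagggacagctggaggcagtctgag
Atf3, minus strand, chr1:191183334-191183583: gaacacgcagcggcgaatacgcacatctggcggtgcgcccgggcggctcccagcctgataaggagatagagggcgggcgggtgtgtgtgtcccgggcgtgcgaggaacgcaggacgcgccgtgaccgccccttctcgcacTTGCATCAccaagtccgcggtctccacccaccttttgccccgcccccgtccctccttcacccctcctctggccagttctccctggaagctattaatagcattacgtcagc
Ppp1r15a, minus strand, chr7:45526269-45526518: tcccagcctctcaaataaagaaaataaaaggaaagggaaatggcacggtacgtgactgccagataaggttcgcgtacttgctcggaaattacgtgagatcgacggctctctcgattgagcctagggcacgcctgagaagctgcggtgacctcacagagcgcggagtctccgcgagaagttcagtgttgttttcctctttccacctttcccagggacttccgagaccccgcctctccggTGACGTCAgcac
The cAMP response element of Ppp1r15a lies at -12 to -5. The core of the antioxidant response element, TGACNNNGC, which binds NRF2 with small MAF proteins, matched in Sesn2 (-36 to -28), Asns (-172 to -164) and Ppp1r15a (4 to 12), and in 12.4% of all windows. The ER stress response element, the site of ATF6 and XBP1 with NF-Y, matched in none of the 10 and in 0.119% of windows. Both were searched on both strands, and the matches within a gene do not overlap each other.

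**Figure D2:**
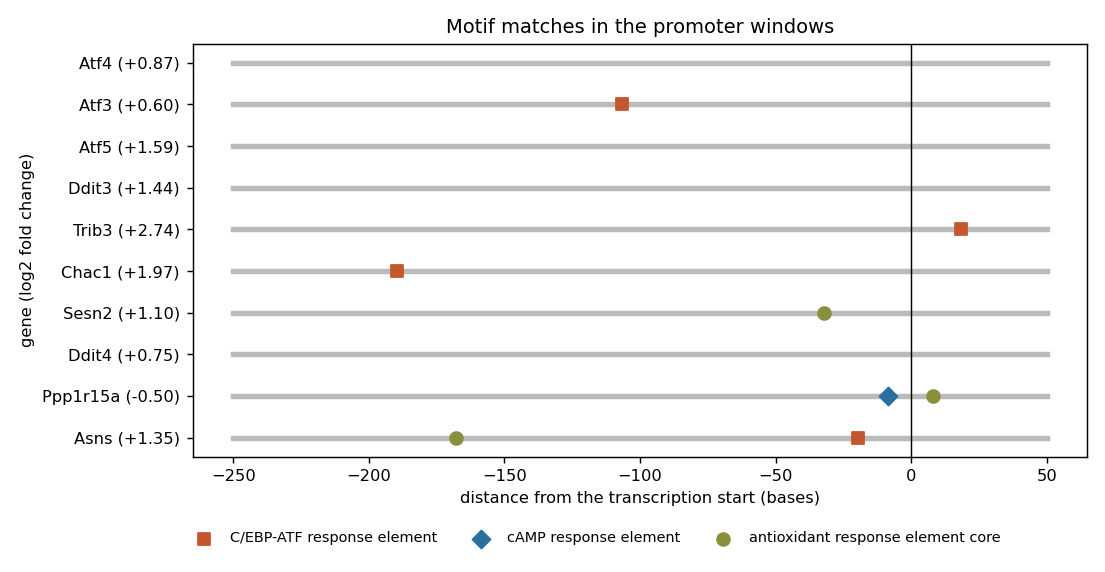
Positions of motif matches in the promoter window of each gene (x axis, bases from the transcription start; grey bar, the window searched), with the gene's log2 fold change in brackets. Squares mark the C/EBP-ATF response element in Atf3, Trib3, Chac1 and Asns, the diamond the cAMP response element in Ppp1r15a, and circles the antioxidant response element core in Sesn2, Ppp1r15a and Asns; the bar of Atf5 stands for 2 windows without a match.

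Atf4, the central transcription factor of the response, lies on chromosome 15 from 80255184 to 80257545. It had 148, 163 and 158 CPM in the Pam3CSK4 libraries and 288, 272 and 295 CPM in the DA libraries. The lowest DA library stood well above the highest Pam3CSK4 library, and the log2 fold change was 0.87 (SE 0.056; adjusted p = 6.53e-09). Among the members Atf4 was the most abundant per transcript length in both groups, at 98.8 ± 5.37 FPKM with Pam3CSK4 and 193 ± 7.51 FPKM with DA (SD, n = 3). The ratio of the mean FPKM values, to which no TMM factor was applied here, was 1.95. The mean transcript length that the authors assigned to Atf4, which has 2 RefSeq transcripts in the files, was 1530 to 1557 bases with Pam3CSK4 and 1520 to 1542 bases with DA, and these ranges overlap. Across the 6 libraries, the tested genes closest to Atf4 by root-mean-square difference of centred log2 CPM were Knop1 (0.024), Crat (0.025), 1700017B05Rik (0.030), Ccdc77 (0.031) and Msantd2 (0.032). With 2 groups, this measure largely picks genes with a log2 fold change near that of Atf4 (here 0.81 to 0.93), and shared regulation was not tested.

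Atf5, a bZIP factor related to ATF4 whose messenger is likewise controlled by upstream reading frames, rose most among the transcription factors. It lies on chromosome 7 from 44812256 to 44816658. Its level was 38.9, 41.7 and 43.3 CPM with Pam3CSK4 and 122, 118 and 132 CPM with DA, a log2 fold change of 1.59 (SE 0.065; adjusted p = 5.23e-11). The rise carried Atf5 past Ppp1r15a in the order of levels, from 21.9 ± 1.05 to 69.8 ± 3.56 FPKM (SD, n = 3).

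Ddit3 encodes CHOP, a C/EBP-family protein that dimerizes with other C/EBP proteins, and lies on chromosome 10 from 127290793 to 127296291. Its 3 Pam3CSK4 libraries had 11.1, 11.3 and 11.95 CPM and its 3 DA libraries 33.9, 29.4 and 29.9 CPM. The groups were far apart relative to their spread, with a log2 fold change of 1.44 (SE 0.081; adjusted p = 1.5e-09).

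Atf3, an ATF4 target that encodes a repressor of many Toll-like receptor-induced cytokine genes, showed the smallest rise of the 9 genes. It lies on chromosome 1 from 191170296 to 191183333. The values were 123, 147 and 146 CPM with Pam3CSK4 and 215, 193 and 224 CPM with DA (log2 fold change 0.60, SE 0.074; adjusted p = 6.43e-06). Atf3 was already among the abundant genes without DA, at 67.8 ± 6.22 FPKM (SD, n = 3), above 93.5% of listed genes, and its range there overlapped that of Ppp1r15a.

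Trib3, a pseudokinase gene that ATF4 and CHOP activate and whose product binds ATF4, had the steepest rise of the 10 genes. It lies on chromosome 2 from 152337425 to 152344060. Its counts were 40, 56 and 57 with Pam3CSK4 and 365, 346 and 382 with DA, which correspond to 1.92, 2.70 and 2.78 CPM and to 16.6, 15.6 and 17.4 CPM. The log2 fold change of 2.74 (SE 0.122; adjusted p = 1.28e-10) was above that of 99.5% of tested genes.

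Chac1, on chromosome 2 from 119351242 to 119354326, encodes an enzyme that breaks down glutathione. It was the least abundant member in both groups, with 34, 29 and 40 counts with Pam3CSK4 and 142, 124 and 166 counts with DA, and every DA library held over 3 times the count of any Pam3CSK4 library. Its log2 fold change was 1.97 (SE 0.167; adjusted p = 1.32e-07). With these low counts its standard error was the largest of the 10.

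Asns encodes asparagine synthetase, the classical amino acid response gene, and lies on chromosome 6 from 7675165 to 7693209. Its libraries held 29.9, 25.0 and 28.0 CPM with Pam3CSK4 and 72.3, 64.3 and 74.1 CPM with DA (log2 fold change 1.35, SE 0.077; adjusted p = 1.84e-09). In both groups its FPKM range overlapped that of Ddit3, its neighbour in the order of levels.

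Both members that restrain the growth kinase complex mTORC1 rose. Sesn2, a sestrin gene whose product senses leucine, lies on chromosome 4 from 132492804 to 132510456. Sesn2 had 7.93, 8.09 and 8.54 CPM with Pam3CSK4 and 18.2, 15.2 and 19.4 CPM with DA (log2 fold change 1.10, SE 0.101; adjusted p = 3.07e-07). Ddit4, encoding REDD1, lies on chromosome 10 from 59949675 to 59951770. Ddit4 had 9.09, 11.4 and 9.85 CPM with Pam3CSK4 and 16.1, 17.2 and 17.8 CPM with DA (log2 fold change 0.75, SE 0.093; adjusted p = 6.64e-06). The intervals of the 2 fold changes, 0.89 to 1.32 for Sesn2 and 0.55 to 0.95 for Ddit4, overlap.

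Ppp1r15a, encoding the stress-induced phosphatase subunit GADD34 that ends eIF2 phosphorylation, moved against the other 9. It lies on chromosome 7 from 45522917 to 45526268. With Pam3CSK4 it had 148, 150.3 and 155 CPM and with DA 109.6, 102 and 109 CPM. No DA library reached the lowest Pam3CSK4 library, and the log2 fold change was -0.50 (SE 0.054; adjusted p = 1.6e-06; 31.8% of tested genes were called lower). In level it went from the third place among the 10, at 62.2 ± 1.01 FPKM, to the fourth, at 46.7 ± 1.62 FPKM (SD, n = 3).

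Ordered by FPKM with Pam3CSK4, the genes ran from Atf4 through Atf3, Ppp1r15a, Atf5, Asns, Ddit3, Ddit4, Sesn2 and Trib3 to Chac1 at 1.02 ± 0.165 FPKM (SD, n = 3). The ranges of Atf3 and Ppp1r15a, of Asns and Ddit3, and of Trib3 and Chac1 overlapped, and the other neighbours were apart. With DA, Asns and Ddit3 were the only neighbours whose ranges overlapped. Trib3 passed Sesn2 in that group, at 8.27 ± 0.382 against 6.73 ± 0.769 FPKM (SD, n = 3). The 10 genes together took 0.0507% to 0.0546% of all counts with Pam3CSK4 and 0.0866% to 0.0946% with DA.

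**Figure D3:**
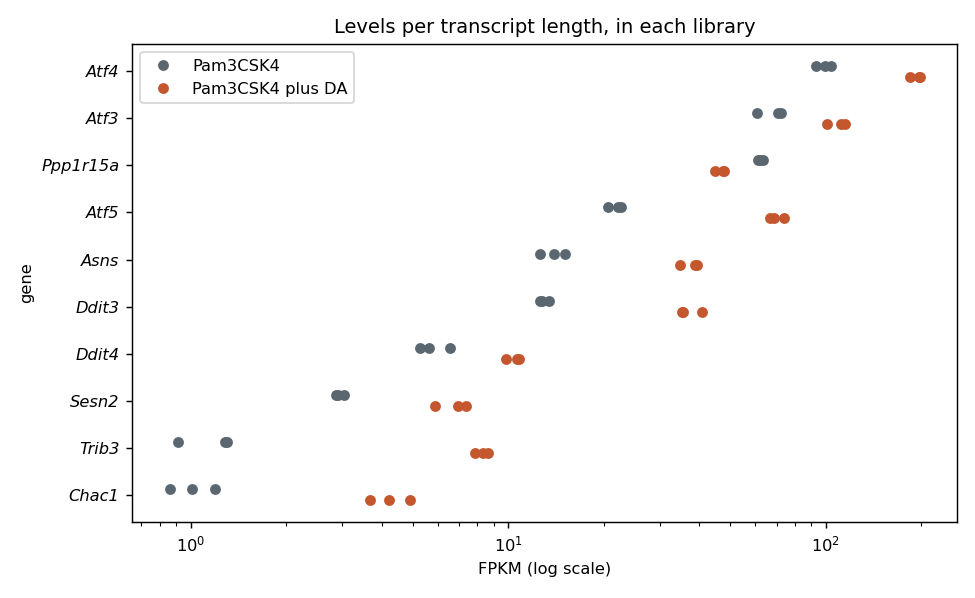
FPKM of each gene on a log scale (x axis), ordered by its mean with Pam3CSK4, with 1 point per library (grey, Pam3CSK4; orange, Pam3CSK4 plus DA). Levels span from about 1 FPKM for Chac1 and Trib3 to 193 FPKM for Atf4 with DA, and Ppp1r15a is the gene whose orange points lie to the left.

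Within the DA group, replicate 2 gave the lowest CPM for 9 of the 10 genes, and within the Pam3CSK4 group replicate 1 did for 8. Without DA replicate 2 the log2 fold changes were 0.89 for Atf4, 2.77 for Trib3, 2.06 for Chac1 and -0.48 for Ppp1r15a. Without Pam3CSK4 replicate 1 they were 0.83 for Atf4, 2.58 for Trib3, 1.96 for Chac1 and -0.52 for Ppp1r15a, and all 10 genes kept their call in either case. The 10 genes are compact: they span 2.1 to 18.0 kb of the genome, with a median of 4.95 kb against 22.4 kb for tested genes with a RefSeq model. Across 12366 such genes, which are not independent replicates, log2 fold change and span had a Spearman correlation of -0.38, and the part of gene length in the members' changes was not tested. In RefSeq, Atf5 overlaps Nup62 (log2 fold change 0.79) and a second gene with a mean under 1 CPM in each group, Ddit3 overlaps Mbd6 (0.23) and Mars (0.49), and Ppp1r15a overlaps Tulp2, which had at most 1 count per library. Whether counting used strand is not given in the sources used here, so reads from overlapping stretches of Atf5 and Ddit3 may be shared.

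Close relatives of the 10 genes did not all move with them. Among 10 paralogs listed, 3 rose and 5 fell, against 32.6% and 31.8% of all tested genes. The median log2 fold change of the paralogs was -0.23. Trib1, a relative of Trib3, was called lower with DA (log2 fold change -0.22, 95% interval -0.34 to -0.10), a call lost under 4 of 16 alternatives (largest adjusted p = 0.107), and Trib2 was barely detected (-0.24, 95% interval -1.16 to 0.68). Chac2, whose product also degrades glutathione, rose (0.67, SE 0.153), and its interval lay below that of Chac1. In the sestrin family Sesn1, known as a p53 target, fell (-0.51, SE 0.118), whereas Sesn3 went from 0.58, 0.19 and 0.44 CPM to 3.22, 2.38 and 3.18 CPM. That is a log2 fold change of 2.84 (SE 0.286), with an interval above that of Sesn2 but at a much lower count. Ddit4l, the relative of Ddit4, rose from 0.43, 0.53 and 0.44 CPM to 2.77, 2.65 and 2.14 CPM (log2 fold change 2.42, SE 0.237). Sesn3 and Ddit4l were near the floor with Pam3CSK4 and passed the count filter only through their DA libraries. A rise was thus a condition of their being tested, and their place against Sesn2 and Ddit4 carries little weight.

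Both regulatory subunit genes of the eIF2 phosphatase fell. Ppp1r15b, which encodes the constitutive counterpart of GADD34, went from 267, 252 and 249.7 CPM to 189.8, 174 and 174 CPM. Its log2 fold change of -0.52 (SE 0.056) had an interval that overlaps that of Ppp1r15a. Jdp2, the closest relative of Atf3, fell (-0.58, SE 0.07) while Atf3 rose. Asnsd1, which shares a domain with asparagine synthetase, was not called (-0.04, 95% interval -0.18 to 0.11). Atf6, kept in this list as an ER-anchored ATF protein, fell (-0.53, SE 0.069).

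**Figure D4:**
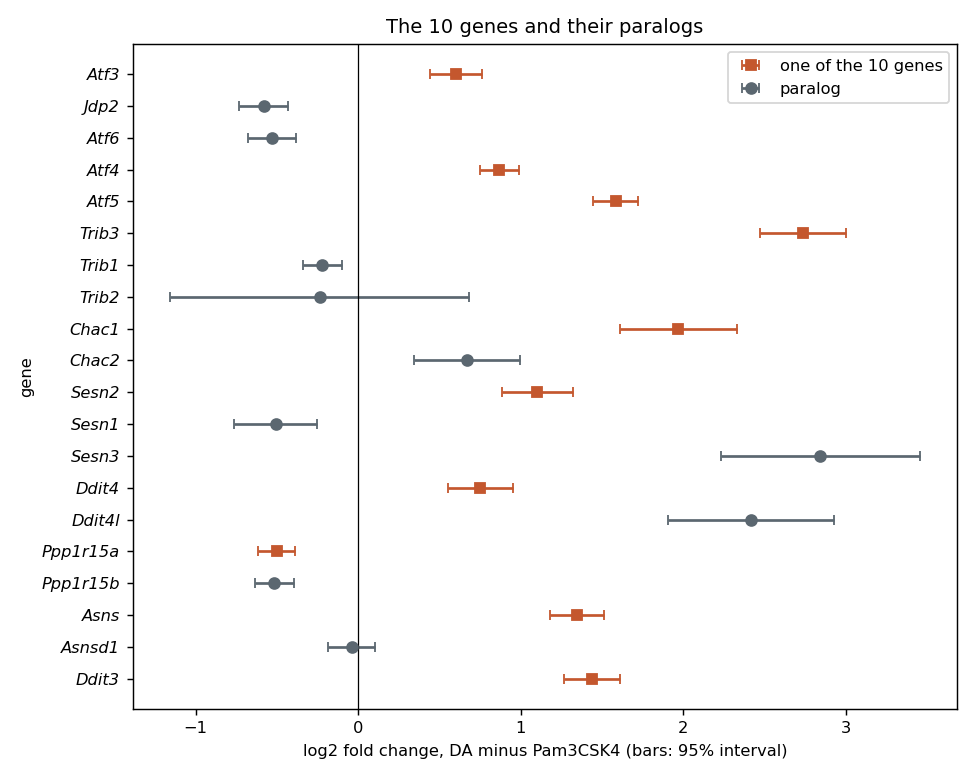
Log2 fold change (x axis, DA minus Pam3CSK4) of the 10 genes (orange squares) and their listed paralogs (grey circles), with 95% intervals from edgeR's fit. Trib3, Chac1, Asns and Atf3 lie to the right of their relatives, and Ppp1r15a and Ppp1r15b overlap at about -0.5. Sesn3 and Ddit4l, which passed the count filter only through their DA libraries, lie to the right of Sesn2 and Ddit4.

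Of the 4 eIF2 kinase messengers, the entry points of the response, 2 were called higher and 1 lower. Over all tested genes 32.6% were called higher and 31.8% lower. Eif2ak3, encoding the ER stress sensor PERK, had 19.4, 17.4 and 14.8 CPM with Pam3CSK4 and 27.7, 21.3 and 24.1 CPM with DA (log2 fold change 0.50, SE 0.108; adjusted p = 0.000989). Eif2ak4, encoding the amino acid sensor GCN2, was called higher (0.30, SE 0.107; adjusted p = 0.0228), a call lost under 4 of 16 alternatives. Among these were the fits without DA replicate 1 (0.19, adjusted p = 0.13) and without Pam3CSK4 replicate 2 (0.30, adjusted p = 0.0576), and DESeq2 (adjusted p = 0.093). Over the 16 alternatives its log2 fold change ranged from 0.19 to 0.42. Eif2ak2, encoding the double-stranded RNA sensor PKR and itself induced by interferon, was called lower (-0.20, SE 0.062; adjusted p = 0.0104), a call lost under 4 of 16 alternatives: upper-quartile factors (-0.09; adjusted p = 0.193) and the 3 limma fits on FPKM (adjusted p = 0.146, 0.148 and 0.212). Eif2ak1, encoding the heme-regulated kinase HRI, was not called (0.06, SE 0.063; adjusted p = 0.426). It was called higher under 3 of 16 alternatives, among them upper-quartile factors (0.17, adjusted p = 0.0181). None of the 4 changed by 2-fold.

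Among 12 genes of eIF2, its exchange factor eIF2B and the phosphatase, 1 rose and 6 fell, with a median log2 fold change of -0.13. Over all tested genes 32.6% rose and 31.8% fell. Eif2b2, the beta subunit of eIF2B, rose from 27.2 ± 0.693 to 42.6 ± 1.91 CPM (log2 fold change 0.64; SD, n = 3). Of the catalytic subunit genes of protein phosphatase 1, Ppp1ca was not called (-0.06, SE 0.057), and Ppp1cb fell from 207 ± 20.0 to 91.0 ± 2.47 CPM (log2 fold change -1.18; SD, n = 3). Ppp1cc was called lower (-0.13, SE 0.05), a call lost under 7 of 16 alternatives. It was lost with upper-quartile factors (-0.02, adjusted p = 0.746) and in the 3 limma fits on FPKM (adjusted p = 0.367, 0.368 and 0.342). Leaving out a library also removed it (adjusted p = 0.0567 without Pam3CSK4 replicate 1, 0.071 without Pam3CSK4 replicate 2 and 0.111 without DA replicate 3). Among 5 listed genes that modulate the kinases, Impact, whose product inhibits GCN2 activation, rose from 25.0 ± 0.917 to 67.3 ± 6.11 CPM (log2 fold change 1.43; SD, n = 3). Dnajc3, an ER cochaperone gene whose product can inhibit PERK and PKR, also rose (0.65, SE 0.063). Gcn1l1, whose product GCN2 needs for its activation, fell (-0.61, SE 0.072), as did the adaptor gene Nck1 (-1.34, SE 0.061), and Oma1 was not called (-0.01, SE 0.082).

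Of 15 tested genes of possible dimer partners of ATF4, 4 were higher and 5 lower, shares close to those over all tested genes (32.6% and 31.8%). Over the 16 alternatives 4 to 7 were higher and 5 to 7 lower. Cebpa, a C/EBP factor of myeloid differentiation, rose from 64.2 ± 5.24 to 186 ± 5.61 CPM (log2 fold change 1.54; SD, n = 3). Cebpg, a partner of ATF4 on its response element, rose by 0.37 (SE 0.06) and Jun by 0.90 (SE 0.055). Cebpd fell from 341 ± 21.3 to 143 ± 5.79 CPM (log2 fold change -1.25; SD, n = 3), and Batf, a bZIP factor of lymphoid and myeloid cells, fell by 1.73 on the log2 scale (SE 0.082). Cebpb, chosen after its values were seen, was not called (-0.15, SE 0.069; adjusted p = 0.0644) but was called lower under 6 of 16 alternatives, among them the fit without DA replicate 3 (-0.24; adjusted p = 0.00266).

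Within the whole ATF and CREB family, 6 of 18 tested genes rose and 9 fell, against 32.6% and 31.8% of all tested genes. Atf4, Atf5 and Atf3 were 3 of the 6. Crem, which encodes activators and repressors of cAMP-responsive genes, rose from 4.30 ± 0.023 to 14.9 ± 1.53 CPM (log2 fold change 1.79; SD, n = 3), the one family member with a larger log2 fold change than Atf5. Besides Batf and Jdp2, Batf2 fell (-0.99, SE 0.109). The family median was -0.18; 12 of the 18 were not called higher.

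Of 43 other tested targets of ATF4 or CHOP, 31 rose, 7 of them at least 2-fold, and 6 fell. Over all tested genes 32.6% rose, 7.34% at least 2-fold, and 31.8% fell. The 31 include genes near the floor with Pam3CSK4, which passed the count filter with the help of their DA libraries. Their median log2 fold change was 0.59, against 0.02 over all tested genes. Slc6a9, a glycine transporter gene, went from 2.21, 1.97 and 1.90 CPM to 9.67, 9.94 and 11.5 CPM (log2 fold change 2.35, SE 0.128). Gdf15, a stress-induced cytokine gene that p53 also activates, rose from 20.0 ± 1.94 to 81.2 ± 7.47 CPM (SD, n = 3), and Sqstm1, an autophagy receptor gene that NRF2 also activates, rose from 1657 ± 46.1 to 4330.5 ± 280.1 CPM (SD, n = 3). The steepest falls were those of the growth arrest genes Gadd45a (-0.95, SE 0.059) and Gadd45b (-0.83, SE 0.069), the second of which NF-kB also activates. With upper-quartile factors 35 rose and 3 fell, but these factors moved all tested genes upward too, with 5055 of 12390 called higher and 3138 lower. Fgf21 and Cbs had at most 2 counts in any library and were not tested.

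The sister branches of the unfolded protein response, ATF6 and XBP1, were represented by 25 genes, of which 21 rose and 2 fell. Over all tested genes 32.6% rose and 31.8% fell. The median log2 fold change of the 25 was 0.65, and the 21 include a gene that passed the count filter only through its DA libraries. Creld2, an ER stress-induced gene, rose from 32.7 ± 1.59 to 135.7 ± 14.9 CPM (log2 fold change 2.05; SD, n = 3). Pdia4, a disulfide isomerase gene, rose from 55.6 ± 0.267 to 151 ± 12.8 CPM (log2 fold change 1.44; SD, n = 3), and Calr, encoding the lectin chaperone calreticulin, rose by 0.97 (SE 0.049). The 2 that fell were Atf6 itself and Sel1l (-0.36, SE 0.065), an adaptor gene of ER-associated degradation. Among 11 tested genes of the mitochondrial stress response, 5 rose and 4 fell, against 32.6% and 31.8% of all tested genes. The median of the 11 was -0.01. Gdf15, Pck2, the mitochondrial phosphoenolpyruvate carboxykinase gene (1.04, SE 0.111), and the protease gene Lonp1 (0.45, SE 0.065) were among those that rose, all 3 being listed as ATF4 targets as well. The protease gene Yme1l1 (-0.73, SE 0.056) and the chaperonin gene Hspd1 (-0.37, SE 0.054) fell.

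**Figure D5:**
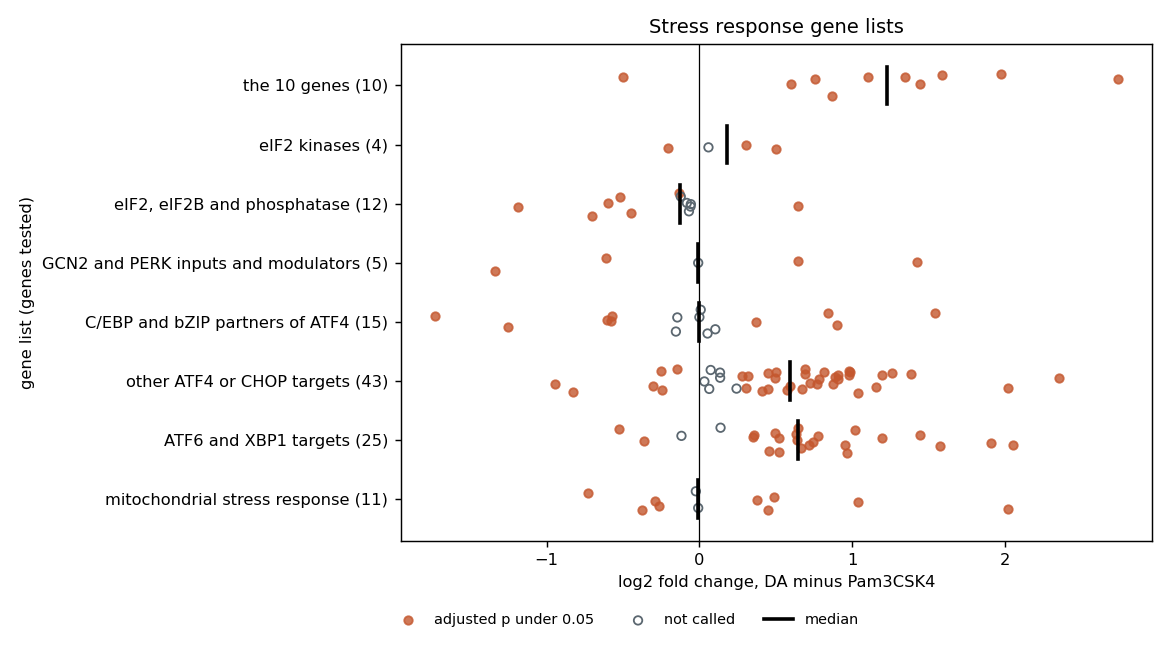
Log2 fold change (x axis, DA minus Pam3CSK4) of each tested gene in the stress response lists, filled where the adjusted p was under 0.05 and open where not called, with the median of each list as a black bar. The medians of the 10 genes (1.22), of other ATF4 or CHOP targets (0.59) and of ATF6 and XBP1 targets (0.65) lie to the right of 0. Those of the other lists shown lie between -0.13 and 0.18.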

How the data were processed

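Groups were taken from the sample titles. Per the file headers, the authors deposited expected counts, estimates of reads per gene without normalization. They also deposited FPKM values, which adjust for transcript length and library size. Bowtie2 2.2.5 and GRCm38.p5 appear in the submitters' processing notes; the quantifier is not given in the sources used here. Each deposited file also gives a mean transcript length per gene, and genes missing from 1 file counted as 0 there.

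Expected counts were rounded, edgeR 4.0.16 (filterByExpr, TMM) tested 12390 genes with the quasi-likelihood test, 3 libraries against 3, and p-values were adjusted over all of them (threshold 0.05). A log2 fold change is DA minus Pam3CSK4, its SE comes from the F statistic, as |log2 fold change| over its root, and intervals are 95%. On simulated counts for 12377 genes, 93.4% of 2-fold and 75.8% of 1.5-fold changes were called in the right direction. Only 200 genes were changed there, upward and downward in equal number, and all genes had the same dispersion. In the data 64.4% of tested genes were called, so these percentages check the procedure and do not give the power of this comparison. FPKM was tested with limma 3.58.1 as log2(FPKM + 1), and DESeq2 1.42.0 was an alternative. The biological coefficient of variation was 0.056 (common dispersion), and depth was 21337932 to 21518425 counts per library.

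The members and lists were chosen with earlier results of these data known. Named genes were the members, the 4 eIF2 kinases, for each list the top 3 risers and top 2 fallers by adjusted p (groups apart, mean of at least 5 CPM), and the 5 genes most like Atf4. Other paralogs, Cebpb, Crebzf, Oma1, Ppp1ca, Ppp1cc, overlapping genes, Fgf21 and Cbs were named outside this rule, after their values were seen. The alternatives were other normalizations, filters, tests and pseudocounts, the replicate block and each library left out.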

Additional observations from a re-analysis of the deposited data

How the results depend on the processing

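All 10 genes kept their direction and call under all 16 alternatives: DESeq2's size factors, upper-quartile factors, the 50 most abundant genes left out, DESeq2's test, no count filter, a mean of at least 50 counts, 3 limma fits on FPKM, the replicate block, and each library left out. In every one, 9 rose and 1 fell. Log2 fold changes ranged from 2.10 to 2.85 for Trib3 and from 1.38 to 2.10 for Chac1. The lowest values came from limma on log2(FPKM + 1), a scale that understates changes of low genes. That scale also gave 1.41 for Slc6a9, 1.02 for Sesn3 and 0.74 for Ddit4l, which had a value under 13 of 16 alternatives. Over the alternatives Sesn2 ranged from 0.97 to 1.22 and Ddit4 from 0.68 to 0.87. On that scale Sesn3 and Ddit4l were thus not clearly above them. For Atf4 they ranged from 0.83 to 0.98 and for Ppp1r15a from -0.53 to -0.39. Of 48 genes named by the rule, 45 kept their call under every alternative, the others being Eif2ak1, Eif2ak2 and Eif2ak4. Of 16 tested genes named outside it, 11 kept theirs wherever a value could be had, the others being Trib1, Sesn1, Cebpb, Crebzf and Ppp1cc. No call of these genes reversed. Among 129 tested genes of the lists, members aside, 68 rose and 34 fell, against 32.6% and 31.8% of all tested genes. The counts for the lists were 65 to 76 and 23 to 36 under other settings. With 1 library left out they were 66 to 71 and 31 to 35. Deviations of same-numbered libraries of the 2 groups were only weakly correlated (0.10, -0.02 and 0.03), and not every library correlated best with its own number. With 3 libraries per group, such values cannot show whether same-numbered libraries share a mouse or culture. With the replicate block 9 members rose and 1 fell, and 71 and 36 list genes did. Depth limits Chac1 and Trib3 most, with 29 to 57 counts per Pam3CSK4 library.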
